A study of Homo sapiens with 9 samples.

Results

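The replication-dependent and linker histone genes encode the core histones H2A, H2B, H3 and H4 that package newly copied DNA and the linker histones H1 that bind between nucleosomes. They were chosen by symbol: a gene counted as a member where its symbol had the form H1-, H2AC, H2BC, H3C or H4C followed by a number. Among the 60708 genes counted 70 members were analysed, 9 of class H1, 15 of H2A, 18 of H2B, 13 of H3 and 15 of H4. On the GRCh38.p13 genome 55 lay on chromosome 6, 11 on chromosome 1, 2 on chromosome 3 and 2 on chromosome 12. The study compared MDA-MB-231, a human triple-negative breast cancer cell line, with *SNAI1* knockouts made from it by RNA-seq of ribosome-depleted total RNA, a preparation that keeps transcripts without a poly(A) tail. There were 3 libraries of unedited cells (WT), 3 labelled CS16 and 3 labelled CS19, CS16 and CS19 being lines grown from single cells after CRISPR/Cas9 cutting in *SNAI1*, which encodes a zinc-finger transcriptional repressor. Each knockout group is 1 clone, made with a pool of guide plasmids, homology-directed repair and puromycin selection, steps the WT cells did not share. All cells were untreated and grew in DMEM with 10% fetal bovine serum and antibiotics. The labels do not say whether libraries of a group came from separate cultures, so the p-values below measure only the spread between these libraries, which may be technical.

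Replication-dependent histone genes are transcribed mainly in S phase, when DNA is copied, and lie in clusters, many as head-to-head pairs of an H2A and an H2B gene that share the stretch between their start sites. Their transcripts are the main class of animal mRNA that ends in a conserved stem-loop in place of a poly(A) tail, bound by the stem-loop binding protein encoded by *SLBP* and trimmed with help of the U7 particle, while *NPAT*, a substrate of cyclin E and *CDK2*, activates their transcription. Most members of a core class encode nearly or exactly the same protein, whereas the H1 members are distinct subtypes. *H1-10* is a linker histone made outside S phase with a polyadenylated transcript. *H1-6*, *H1-7* and *H1-8* are linker histones of germ cells, *H2AC1* and *H2BC1* encode the H2A and H2B of testis, and *H3C13*, *H3C14* and *H3C15* encode H3.2.

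Libraries held 19527195 to 28627777 counted read pairs, and levels are given as CPM, counts divided by the TMM-scaled library size in the usual unit. A count of 0 in a library allows up to 3 counts, which is 0.0982 to 0.171 CPM, and such limits cover counting error only. The library WT replicate 2 stood apart, since a chi-square test over all genes gave 188 and 230 per degree of freedom against the other two WT libraries and 4.78 to 18.1 for the remaining pairs of replicates. *SNAI1* was not lower in the knockouts, with 0.789, 2.17 and 1.08 CPM in WT, 1.27, 1.91 and 1.95 CPM in the CS16 libraries and 2.59, 4.08 and 3.08 CPM in the CS19 libraries, with log2 differences from WT of 0.39 ± 0.43 (SE, adjusted p = 0.474) and 1.32 ± 0.42 (SE, adjusted p = 0.031). The *SNAI1* counts thus did not show the loss named by the labels. A count over the whole gene does not show whether an exon was edited. The study reports lower *SNAI1* mRNA at each exon by RT-qPCR, deletions in the *SNAI1* reads of its knockout cells and no detectable SNAI1 protein. Markers of basal-type MDA-MB-231 cells were far lower under the knockout labels. All 10 fell in each comparison with WT, and their summed level was 8812 to 13434 CPM in WT against 597 to 620 CPM under CS16 and 583 to 634 CPM under CS19. *S100A6* had 0 counts in 5 of these 6 libraries and 1 count in the last, and *CD44* had 0 counts in 5 and 2 counts in the other. Not all were so low, since 8 of the 10 kept enough counts to be tested in CS16 against CS19. Of 12 embryonic kidney markers 10 were tested. In CS16 against WT 6 rose and 2 fell, and in CS19 against WT 7 rose and 2 fell, with summed levels of 75.9 to 120 CPM in WT, 148 to 154 CPM under CS16 and 154 to 171 CPM under CS19. The knockout libraries are therefore called here the libraries labelled CS16 and CS19, and every difference from WT is one between libraries that also differ in these markers, so that loss of *SNAI1*, clonal differences and a difference of cell line cannot be told apart.

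The element that members share beyond their names was found by script after the stop codons, with a search for a 16-base stem-loop. It was present in 64 of 70 members, 22 to 62 bases past the stop codon with a median of 35, namely in 6 of 9 H1, 15 of 15 H2A, 17 of 18 H2B, 12 of 13 H3 and 14 of 15 H4 members. It was not found behind *H1-10*, *H1-7*, *H1-8*, *H3C6*, *H2BC10* and *H4C13*. The letters split by class. The H4 stem-loops read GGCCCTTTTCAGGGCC in 10 members and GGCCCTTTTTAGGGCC in 4, whereas 11 of 15 H2A, 12 of 17 H2B, 11 of 12 H3 and 4 of 6 H1 members had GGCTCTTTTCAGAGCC. The sites below, 26 bases of the GRCh38 reference written 5′ to 3′ with the stem-loop in capitals, belong to members of each class that rose or fell under both knockout labels:
H1-3 stem-loop site, chr6:26234212-26234237, minus strand: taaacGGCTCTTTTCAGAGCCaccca
H2AC20 stem-loop site, chr1:149887386-149887411, plus strand: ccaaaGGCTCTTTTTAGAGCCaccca
H2AC14 stem-loop site, chr6:27814303-27814328, minus strand: acaaaGGCTCTTTTCAGAGCCacttc
H2BC14 stem-loop site, chr6:27815464-27815489, plus strand: ccaaaGGCTCTTTTCAGAGCCgtcca
H2BC7 stem-loop site, chr6:26199963-26199988, plus strand: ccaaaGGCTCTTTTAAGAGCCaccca
H2BC26 stem-loop site, chr1:228458533-228458558, plus strand: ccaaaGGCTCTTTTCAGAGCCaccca
H3C3 stem-loop site, chr6:26045844-26045869, plus strand: gaaaaGGCTCTTTTCAGAGCCactca
H4C4 stem-loop site, chr6:26188710-26188735, minus strand: ccaacGGCCCTTTTCAGGGCCaccta
H4C5 stem-loop site, chr6:26204996-26205021, plus strand: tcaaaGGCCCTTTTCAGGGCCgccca
H4C12 stem-loop site, chr6:27831173-27831198, minus strand: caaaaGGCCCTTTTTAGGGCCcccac
Members with the same 16 bases moved in opposite directions. *H3C3*, *H2AC14* and *H2BC14*, which fell under both labels, and *H1-3* and *H2BC26*, which rose, all carry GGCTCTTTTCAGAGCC.

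Upstream sequence was at hand for 65 members, as the 250 bases before the RefSeq start (GRCh38.p14), and was searched on both strands for 5 motifs. TATAAA, the core of the TATA box, was in 63.1% of member windows and 10.7% of all 35116 promoters of the same length. CCAAT, the box bound by NF-Y, was in 14 of 14 H2A, 18 of 18 H2B, 11 of 11 H3 and 8 of 9 H1 windows but 3 of 13 H4 windows, against 32.0% of all promoters. The octamer ATTTGCAT, bound by OCT1, was in 11 of 14 H2A and 14 of 18 H2B windows and 1.63% of all. The H1 box AAACACA was in 7 of 9 H1 windows and 4.82% of all, and GGTCC, part of the H4 promoter element, in 12 of 13 H4 windows and 40.7% of all. A match on the other strand of GGTCC can overlap CCAAT, as it does in the *H3C3* window. The *H3C4* and *H2AC7* windows are the same 250 bases, so that stretch counts in both the H3 and the H2A windows. The windows shown, with all matches in capitals, are those of 3 members that rose and 3 that fell between the groups, and the *H2AC14* and *H2BC14* windows are largely the same stretch read from opposite strands:
H1-3 upstream window, chr6:26234988-26235237, minus strand: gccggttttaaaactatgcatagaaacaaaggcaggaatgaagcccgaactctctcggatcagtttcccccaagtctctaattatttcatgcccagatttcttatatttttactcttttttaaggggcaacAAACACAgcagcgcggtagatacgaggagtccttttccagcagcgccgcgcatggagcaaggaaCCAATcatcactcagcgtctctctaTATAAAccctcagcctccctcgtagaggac
H4C5 upstream window, chr6:26204360-26204609, plus strand: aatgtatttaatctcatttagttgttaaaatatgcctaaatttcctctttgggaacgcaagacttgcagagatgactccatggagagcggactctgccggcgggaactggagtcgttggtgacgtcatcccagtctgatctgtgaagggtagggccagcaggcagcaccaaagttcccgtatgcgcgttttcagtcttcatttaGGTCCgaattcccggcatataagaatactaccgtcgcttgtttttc
H2BC26 upstream window, chr1:228457853-228458102, plus strand: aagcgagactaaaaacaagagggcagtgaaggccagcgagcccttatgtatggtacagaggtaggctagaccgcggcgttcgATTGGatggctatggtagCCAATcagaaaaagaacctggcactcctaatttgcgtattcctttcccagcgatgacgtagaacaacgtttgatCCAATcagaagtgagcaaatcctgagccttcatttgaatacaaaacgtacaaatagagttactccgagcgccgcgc
H3C3 upstream window, chr6:26045134-26045383, plus strand: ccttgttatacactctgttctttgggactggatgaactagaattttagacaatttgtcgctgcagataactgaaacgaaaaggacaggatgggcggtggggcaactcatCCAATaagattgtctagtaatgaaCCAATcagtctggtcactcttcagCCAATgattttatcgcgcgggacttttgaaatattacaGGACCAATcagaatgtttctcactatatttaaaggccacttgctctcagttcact
H2AC14 upstream window, chr6:27814778-27815027, minus strand: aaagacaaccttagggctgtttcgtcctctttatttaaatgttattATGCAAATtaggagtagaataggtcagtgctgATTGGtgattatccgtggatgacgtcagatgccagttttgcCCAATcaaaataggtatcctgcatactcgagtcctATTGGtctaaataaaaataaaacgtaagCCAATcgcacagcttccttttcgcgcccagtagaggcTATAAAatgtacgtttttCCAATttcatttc
H2BC14 upstream window, chr6:27814772-27815021, plus strand: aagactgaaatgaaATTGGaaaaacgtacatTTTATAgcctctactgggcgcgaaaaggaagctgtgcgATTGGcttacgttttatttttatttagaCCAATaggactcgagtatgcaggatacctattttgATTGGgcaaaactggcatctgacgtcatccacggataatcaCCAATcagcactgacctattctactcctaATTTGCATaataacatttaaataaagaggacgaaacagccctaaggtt
The same motifs stood before members that rose and members that fell, though not in equal shares. Among the 13 members that rose past 4-fold in the fit of all 6 libraries labelled SNAI1-KO against WT, 11 held CCAAT, 6 held TATAAA and 5 the octamer. Among the 7 that fell past 4-fold, 6 held CCAAT, 6 held TATAAA and 5 the octamer. Of the other 27 windows of tested members, 22 held CCAAT, 22 held TATAAA and 11 the octamer. TATAAA was thus least frequent in the set that rose, a difference that was not tested. The median number of CpG dinucleotides per window was 8 in the first set, 9 in the second and 10 in the other 27 windows of tested members.

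Total histone RNA was higher under both knockout labels. Summed over all members it was 9929, 9026 and 14411 CPM in the WT libraries, 15570, 17970 and 16859 CPM under the CS16 label and 17169, 17760 and 18188 CPM under the CS19 label, 1.51 and 1.59 times the WT mean. Every library labelled CS16 or CS19 lay above every WT library. As a share of all counts, members took 0.802 to 1.28% in WT, 1.60 to 1.75% in CS16 and 1.91 to 1.94% in CS19. Without the members that changed past 4-fold in CS16 or CS19 against WT, the sum was 10158 ± 2614 CPM (mean ± SD, n = 3) in WT, 14810 ± 1106 CPM under CS16 and 15850 ± 409 CPM under CS19. In bulk RNA more cells that make histones and more histone RNA per cell cannot be told apart.

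**Figure D1:**
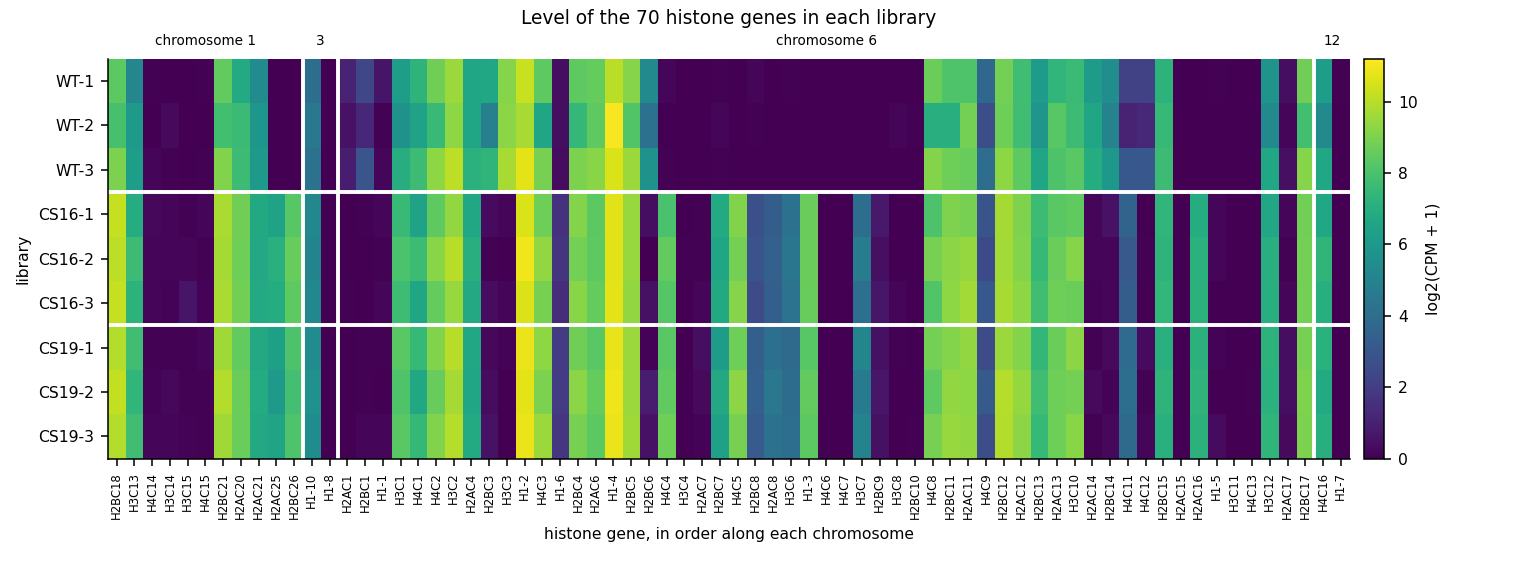
Level of each of the 70 members (columns, in genome order) in each of the 9 libraries (rows), as log2(CPM + 1). A block of chromosome 6 columns from H4C4 to H2BC10 is at or near 0 in the 3 WT libraries, and several of its columns are filled in all libraries labelled CS16 and CS19, whereas H3C3, H2BC3, H2AC14 and H2BC14 show the reverse.

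The classes did not rise to the same degree. H4 summed to 1430, 554 and 2011 CPM in WT, 2031, 2937 and 2268 CPM under CS16 and 2730, 2444 and 2959 CPM under CS19, ratios of 1.81 and 2.04 that were 1.40 and 1.58 without WT replicate 2. H2B summed to 3199, 2032 and 4487 CPM in WT, 5931, 5796 and 6091 CPM under CS16 and 5300, 6358 and 5873 CPM under CS19, ratios of 1.83 and 1.80 that were 1.55 and 1.52 without that library. In H4 and in H2B, as in H1 and H2A, no library labelled CS16 or CS19 lay within the WT range. H2A gave 1747 ± 385 CPM (mean ± SD, n = 3 here and in the rest of the paragraph) in WT, 2876 ± 325 CPM under CS16 and 2883 ± 109.9 CPM under CS19, a ratio of 1.65 in each. H1 gave 2854 ± 505, 3791 ± 242 and 4072 ± 59.6 CPM in WT, CS16 and CS19, and H3 gave 1951 ± 543, 1780 ± 402 and 2196 ± 241 CPM. The H3 ranges overlapped, with ratios of 0.913 and 1.13. By position, the 11 chromosome 1 members summed to 1026 ± 324 CPM in WT, 3175 ± 52.7 CPM under CS16 and 2900 ± 187 CPM under CS19, 3.09 and 2.83 times the WT mean, and the 55 chromosome 6 members to 10005 ± 2531, 13460 ± 1150 and 14633 ± 493 CPM, 1.35 and 1.46 times. The chromosome 1 sum includes *H2AC25* and *H2BC26*, which lie apart from the others and had 0 counts in WT. This pair held 461 CPM under CS16 and 337 CPM under CS19. These sums carry no test.

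**Figure D2:**
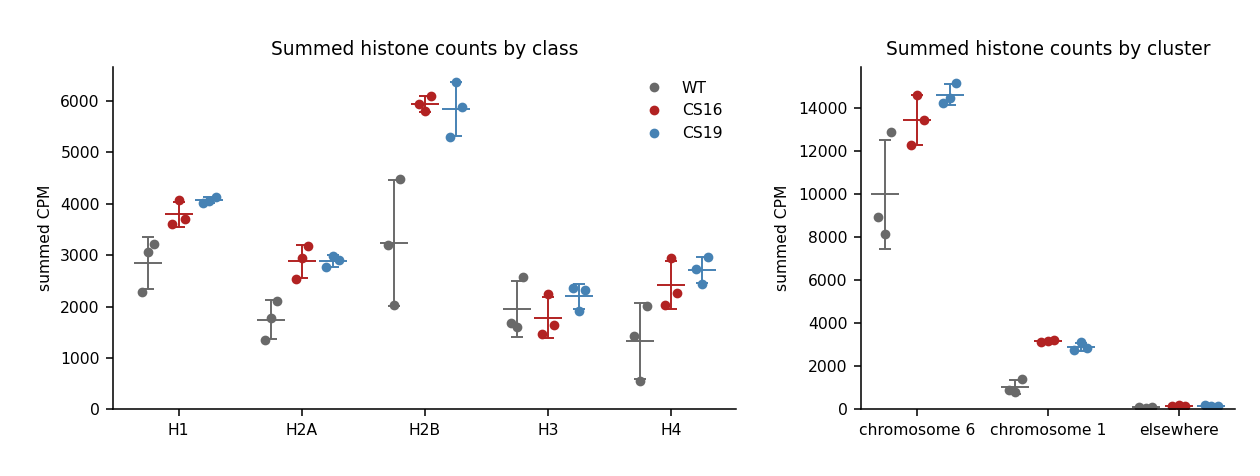
Summed level of the members of each class and of the members grouped by chromosome in CPM, with 1 point per library and the mean ± SD of the 3 libraries of a group. The chromosome 1 sum includes the pair H2AC25 and H2BC26, which lies apart from the others. H1, H2A, H2B, H4, the chromosome 1 members and the members elsewhere are separated from WT under both knockout labels. The chromosome 1 means are 1026 CPM in WT, 3175 CPM under CS16 and 2900 CPM under CS19. The H3 groups overlap, as do WT and CS16 on chromosome 6.

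Within each group the order of the libraries in summed H4 level was that of *RN7SL1*, the RNA of the signal recognition particle, which is also made without a poly(A) tail. The other classes did not keep this order in every group. H1 and H2A were lowest in WT replicate 1, at 2279 and 1345 CPM, beside 3058 and 1781 CPM in WT replicate 2. The H2B order differed in CS16 and CS19, and the H3 order in CS19. *RN7SL1* stood at 12747, 7786 and 25067 CPM in the WT libraries, 12734, 31888 and 22428 CPM under CS16 and 30464, 21521 and 39630 CPM under CS19. It did not pass the test in any comparison, with a log2 difference of 0.59 ± 0.49 (SE, adjusted p = 0.331) in CS16 and 1.05 ± 0.45 (SE, adjusted p = 0.0853) in CS19 against WT. WT replicate 2, the lowest library in H4, was also lowest in *RNU5A-1*, at 6.41, 0.114 and 7.65 CPM in the 3 WT libraries, and in *RNU4ATAC*, at 4.93, 0.171 and 6.06 CPM, both short spliceosomal RNAs. The part of short RNA recovery in the histone sums was not tested.

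**Figure D3:**
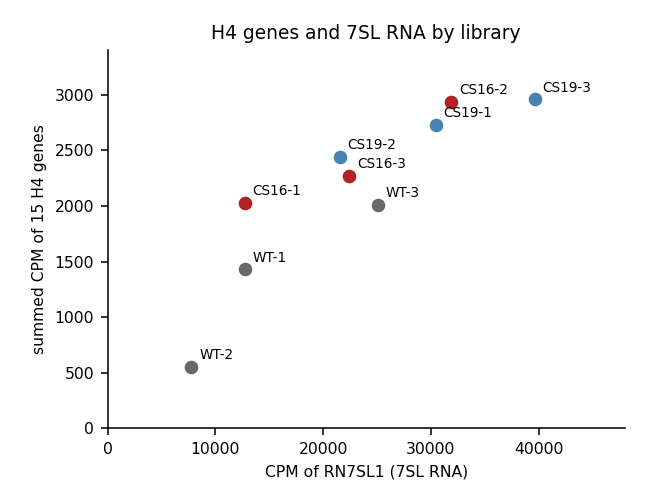
Summed H4 level (vertical axis, CPM) against the level of RN7SL1 (horizontal axis, CPM) in each library, coloured by group. Within each of the 3 groups the libraries have the same order on both axes, and WT replicate 2 is lowest on both, at 7786 CPM of RN7SL1 and 554 CPM of H4.

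Each gene was tested by quasi-likelihood in edgeR, with p-values adjusted over all genes by Benjamini-Hochberg, and a member rose or fell where its adjusted p was under 0.05. In CS16 against WT 50 members were tested, 25 rose (27.0% of all genes tested were called higher), 7 fell (28.6% called lower) and 18 did not pass. Their median log2 difference was 0.88 against -0.027 over all 18611 genes tested. In CS19 against WT 50 were tested, 28 rose (26.3% of all called higher), 7 fell (26.6% called lower) and 15 did not pass, with a median of 1.06 against -0.0026 over 18935 genes. With the study's further requirement of a log2 difference of at least 2, 12 members were higher and 7 lower in CS16 against WT (11.8% and 15.3% of all genes) and 12 were higher and 7 lower in CS19 against WT (12.0% and 14.4%). With the 6 knockout libraries as 1 group, 30 of 51 members rose (31.1% of 19631 genes called higher) and 8 fell (32.6% called lower), and 13 and 7 passed the larger cut-off (12.6% and 14.3%). The share of members that rose was above the background in each comparison with WT and the share that fell was below it. Both comparisons share the WT libraries. Without WT replicate 2, 31 of 52 members tested rose and 11 fell in CS16 against WT (36.4% and 36.3% of all genes called higher and lower) and 32 of 51 rose and 11 fell in CS19 against WT (36.4% and 34.8%). Some of the calls did not hold with each library left out in turn. In CS16 against WT those of *H2BC21*, *H2BC11*, *H2AC11*, *H2BC12* and *H3C10* were lost when some single libraries were left out, with adjusted p up to 0.125 in edgeR, and in CS19 against WT those of *H2BC21*, *H2BC11*, *H2AC11*, *H2BC12*, *H2AC13*, *H4C11* and *H3C12*, with adjusted p up to 0.0808. WT replicate 1 was among the libraries whose omission ended the call for each of them but *H2AC11* in CS19. Without WT replicate 2 all these calls held in edgeR, with adjusted p of at most 0.00301 in CS16 and 0.000234 in CS19.

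**Figure D4:**
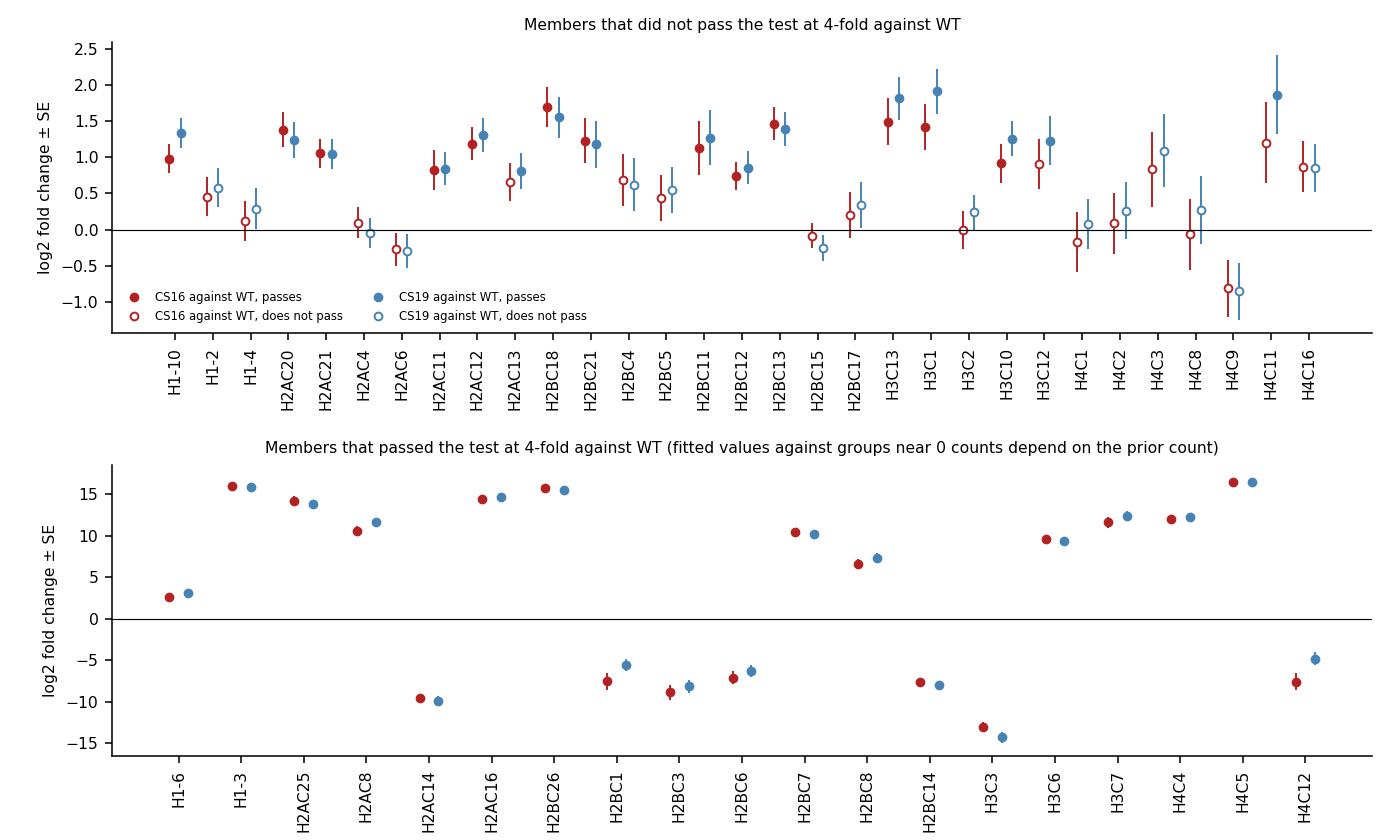
Log2 difference from WT of each tested member, CS16 and CS19 side by side, with bars for ± SE and filled points where the adjusted p was under 0.05. Most members lie between -1 and 2, and separate sets lie above 6 (such as H1-3 and H4C5 near 16) and below -4 (such as H3C3 at -13.00 and -14.32).

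The calls are given by class and position, with no test of a difference between them. Of all genes tested, 27.0% were called higher and 28.6% lower in CS16 against WT, and 26.3% and 26.6% in CS19 against WT. In CS16 and in CS19 against WT 3 of 5 tested H1 members rose and the other 2 did not pass, of 11 H2A members 7 and 8 rose and 1 fell, and of 16 H2B members 8 rose and 4 fell in each. Of 8 H3 members 5 and 6 rose and 1 fell, and of 10 H4 members 2 and 3 rose and 1 fell. The shares of H4 members that rose and of H2B members that fell lie near those of all genes. All 7 tested chromosome 1 members rose in each comparison, with median log2 differences of 1.49 and 1.55, and of 41 tested on chromosome 6, 17 and 20 rose and 7 fell, with medians of 0.68 and 0.81.

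Within a class, levels were compared per kilobase of annotated exon, a scale that understates members with long alternative exons. *H1-4* and *H1-2* were the highest H1 members, *H1-4* at 2011, 2139 and 2385 CPM per kb in WT, CS16 and CS19 and *H1-2* at 1714, 2293 and 2477. By these means *H1-2* was above *H1-4* in CS16 and CS19, but *H1-4* was above *H1-2* in CS16 replicates 1 and 3 and CS19 replicate 2. In WT *H1-4* was above *H1-2* in replicate 2 only. *H2AC12* led H2A with 562, 1247 and 1347 CPM per kb, and *H2BC12* led H2B with 1028, 1680 and 1800. *H3C2* led H3 with 1607, 1564 and 1838 CPM per kb, and *H4C3* led H4 with 748, 1297 and 1539. The make-up of each class differed between the groups, as the shares of its counts show. *H1-3* took 10.4% ± 0.563 (mean ± SD, n = 3) of H1 counts in CS16 and 8.26% ± 0.535 in CS19 with 0 counts in WT, *H4C5* took 22.8% ± 6.1 and 19.0% ± 5.23 of H4 counts with 0 in WT, and *H4C4* took 12.7% ± 0.589 and 13.4% ± 1.45. *H3C3* went the other way, from 35.1% ± 2.38 of H3 counts in WT to 0.0047% in CS16 and 0.0013% in CS19.

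**Figure D5:**
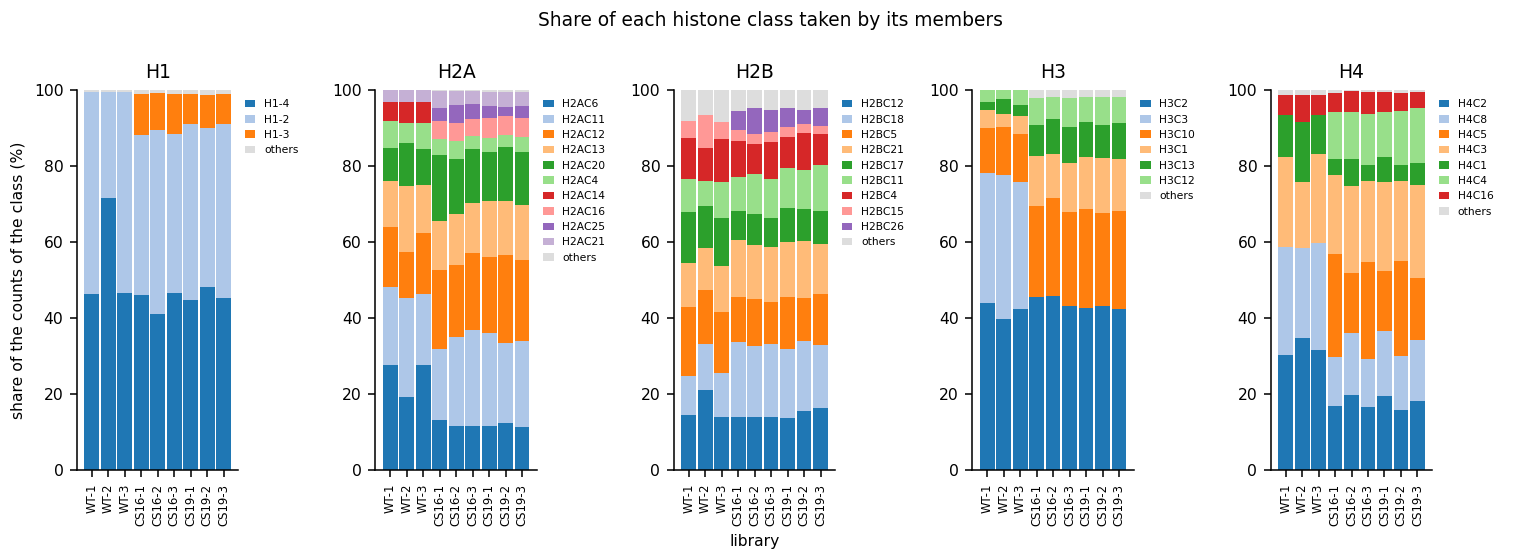
Share of each class's counts taken by each member in each library, in percent, with members stacked to 100% per class. H3C3 makes up 35.1% of H3 counts on average in WT and has no visible band under the knockout labels, and H4C5, H4C4, H1-3 and H2BC26 have visible bands only in the libraries labelled CS16 and CS19.

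Among linker histones, *H1-4* and *H1-2*, the subtypes H1.4 and H1.2 found in most dividing cells, supplied most counts in every group. *H1-4* stood at 1054, 2190 and 1503 CPM in the WT libraries, 1661, 1669 and 1719 CPM under the CS16 label and 1802, 1958 and 1871 CPM under the CS19 label, and its log2 difference from WT was 0.12 ± 0.28 (SE, adjusted p = 0.738) in CS16 and 0.29 ± 0.28 (SE, adjusted p = 0.425) in CS19. WT replicate 2 was highest of the 9, and the groups overlapped. *H1-2* stood at 1208, 846 and 1704 CPM in the WT libraries, 1519, 1964 and 1546 CPM under the CS16 label and 1857, 1688 and 1889 CPM under the CS19 label, with log2 differences of 0.45 ± 0.27 (SE, adjusted p = 0.197) and 0.57 ± 0.27 (SE, adjusted p = 0.109). Neither member passed the test. *H1-3*, which encodes subtype H1.3, had 0 counts in every WT library and 394, 399 and 392 CPM under CS16 and 317, 360.0 and 332 CPM under CS19. Against a floor of 3 counts over the 3 WT libraries it was at least 7536-fold higher in CS16 and at least 6416-fold higher in CS19 (adjusted p = 7.25e-06 and 6.12e-06).

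*H1-10*, a replacement subtype, rose, from 15.4, 21.6 and 17.4 CPM in WT to 36.8, 32.1 and 36.0 CPM under CS16 and 41.1, 50.3 and 42.1 CPM under CS19, log2 differences of 0.98 ± 0.20 (SE, adjusted p = 0.00457) and 1.33 ± 0.21 (SE, adjusted p = 0.00119), and an antisense gene covers 22.8% of its exons in counts made without strand. The testis subtype *H1-6* rose by 2.60 and 3.07 on the log2 scale but stayed under 3 CPM in every library. *H1-1* had at most 11 counts in a library and *H1-5* at most 8, and both were tested in no comparison.

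Of the H2A members with the highest levels, *H2AC12* and *H2AC20* rose in each comparison. *H2AC12* stood at 214, 216 and 340.2 CPM in the WT libraries, 526, 550.3 and 634 CPM under the CS16 label and 549.5, 686 and 612 CPM under the CS19 label. No library labelled CS16 or CS19 was as low as any WT library, and the log2 difference was 1.18 ± 0.23 (SE, adjusted p = 0.00332) in CS16 and 1.30 ± 0.24 (SE, adjusted p = 0.00244) in CS19. *H2AC20*, on chromosome 1, stood at 114.2, 199 and 202 CPM in the WT libraries, 436, 427 and 445 CPM under the CS16 label and 358, 416 and 401 CPM under the CS19 label, also without overlap, with log2 differences of 1.38 ± 0.24 (SE, adjusted p = 0.00223) and 1.23 ± 0.25 (SE, adjusted p = 0.00432). *H2AC13* stood at 163, 312 and 264 CPM in the WT libraries, 325, 395 and 419.9 CPM under the CS16 label and 409.7, 427 and 422 CPM under the CS19 label. Its lowest value under a knockout label was just above the highest WT value, and its log2 difference did not pass the test in CS16, 0.66 ± 0.26 (SE, adjusted p = 0.0668), and passed it in CS19, 0.81 ± 0.25 (SE, adjusted p = 0.0294).

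*H2AC16* and *H2AC14* were expressed under opposite labels. *H2AC16* had 0 counts in every WT library and stood at 123, 141 and 146 CPM under CS16 and 144, 154 and 147 CPM under CS19, at least 2621-fold and 2837-fold higher (adjusted p = 9.69e-06 and 6.86e-06). *H2AC14* stood at 69.1, 97.3 and 121 CPM in WT and had 3, 3 and 2 counts in the CS16 libraries and 1, 5 and 1 counts in the CS19 libraries. WT was 793-fold (95% counting interval 402 to 1839) above CS16 and 1031-fold (95% counting interval 500.2 to 2566) above CS19, with adjusted p = 5.09e-06 and 9.33e-06. These intervals cover counting error only, and 61.8% of the 100-base stretches of *H2AC14* also occur in *H2AC13*, so that reads may be lost or misplaced between them. *H2AC25* also had 0 counts in every WT library and stood at 85.5, 139 and 121 CPM under CS16 and 81.2, 65.6 and 92.9 CPM under CS19, at least 2210-fold and 1550-fold higher (adjusted p = 2.2e-05 and 1.4e-05). Of the other 4 tested H2A members *H2AC21* and *H2AC11* rose in each comparison, and *H2AC4* and *H2AC6* did not pass, with log2 differences of 0.091 and -0.27 in CS16. *H2AC6* took 24.9% ± 4.96 of H2A counts in WT, 12.2% ± 0.864 in CS16 and 11.9% ± 0.531 in CS19. The testis gene *H2AC1* was at 1.08, 0.456 and 0.873 CPM in WT with 1 count over the other 6 libraries, and was not tested.

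Of the leading H2B members, *H2BC12* rose and *H2BC17* and *H2BC5* did not pass the test. *H2BC12* stood at 463, 429 and 634 CPM in the WT libraries, 833, 808 and 853 CPM under the CS16 label and 727, 985 and 961 CPM under the CS19 label, without overlap with WT, and its log2 difference was 0.74 ± 0.20 (SE, adjusted p = 0.0142) in CS16 and 0.85 ± 0.23 (SE, adjusted p = 0.0154) in CS19. *H2BC17* stood at 432, 225 and 569 CPM in the WT libraries, 448, 467 and 462 CPM under the CS16 label and 472, 527 and 502 CPM under the CS19 label, all inside the WT range, with log2 differences of 0.20 ± 0.31 (SE, adjusted p = 0.61) and 0.33 ± 0.32 (SE, adjusted p = 0.408). *H2BC5* stood at 573, 289 and 722 CPM in the WT libraries, 703, 717 and 669 CPM under the CS16 label and 723, 725 and 788 CPM under the CS19 label. In *H2BC17* and *H2BC5* the wide WT range came with a low value in WT replicate 2.

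*H2BC7* and *H2BC26* were at or near 0 in WT. *H2BC7* had 1, 2 and 1 counts in the WT libraries and stood at 112.9, 95.8 and 109.8 CPM under CS16 and 72.3, 108 and 84.9 CPM under CS19, 1523-fold (95% counting interval 595 to 5591) and 1265-fold (95% counting interval 494 to 4644) higher, with adjusted p = 4.18e-06 and 3.59e-06. *H2BC26* had 0 counts in WT and stood at 308, 389 and 339.5 CPM under CS16 and 265, 229.6 and 278 CPM under CS19, at least 6596-fold and 4952-fold higher (adjusted p = 8.38e-06 and 6.97e-06). *H2BC8* rose to lower levels, 5.59, 6.35 and 5.13 CPM under CS16 and 9.45, 9.93 and 8.41 CPM under CS19 from 3 counts over the WT libraries.

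*H2BC3*, *H2BC6*, *H2BC14* and the testis gene *H2BC1* fell. *H2BC3* stood at 100.5, 28.5 and 162 CPM in WT and had 5, 1 and 7 counts in CS16 and 4, 7 and 14 in CS19, so that WT was 508-fold (95% counting interval 297 to 954) and 300.4-fold (95% counting interval 203 to 465) higher (adjusted p = 0.000132 and 0.000111). *H2BC14* stood at 43.6, 31.0 and 61.6 CPM in WT and had 9, 2 and 3 counts in CS16 and 5, 2 and 6 in CS19, so that WT was 218-fold (95% counting interval 129.6 to 399) and 267-fold (95% counting interval 156 to 502) higher (adjusted p = 3.37e-05 and 8.86e-06). *H2BC6*, with 28.2% of its exon bases under an antisense gene, stood at 40.1, 17.5 and 53.8 CPM in WT and had at most 18 counts in any library labelled CS16 or CS19, WT being 148-fold (95% counting interval 92.2 to 254) and 84.1-fold (95% counting interval 60.0 to 122) higher (adjusted p = 0.000238 and 0.000208). In all 3 of these members WT replicate 2 was the lowest WT library and still lay far above every library labelled CS16 or CS19. *H2BC1* was low in WT as well, at 4.14, 1.37 and 6.78 CPM. Of the other tested H2B members *H2BC18*, *H2BC21*, *H2BC11* and *H2BC13* rose in each comparison, by 1.13 to 1.69 in CS16 and 1.18 to 1.55 in CS19 on the log2 scale, and *H2BC4* and *H2BC15* did not pass.

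H3 held a leading member that did not pass the test, one that fell and several that rose. *H3C2* stood at 737, 636 and 1090 CPM in the WT libraries, 669.8, 1022 and 706 CPM under the CS16 label and 1007, 829 and 983 CPM under the CS19 label, all within the WT range, with log2 differences of -0.0065 ± 0.26 (SE, adjusted p = 0.986) and 0.24 ± 0.24 (SE, adjusted p = 0.436). *H3C3* stood at 571, 606 and 862 CPM in WT and had 2, 0 and 3 counts in CS16 and 2, 0 and 0 in CS19. WT was 9051-fold (95% counting interval 3878 to 27878) above CS16 and 25738-fold (95% counting interval 7124 to 212530) above CS19, with adjusted p = 5.43e-06 and 5.1e-06. *H3C1* stood at 77.5, 51.3 and 124 CPM in the WT libraries, 191, 258 and 211 CPM under the CS16 label and 323, 277 and 320.2 CPM under the CS19 label, with no overlap between the 3 groups and log2 differences from WT of 1.42 ± 0.32 (SE, adjusted p = 0.00697) and 1.91 ± 0.32 (SE, adjusted p = 0.00158). *H3C13*, *H3C6* and *H3C10* rose in each comparison. *H3C13*, the H3.2 gene that was tested, went from 35.0, 64.7 and 74.0 CPM in WT to 121, 204 and 152 CPM under CS16 and 216, 162 and 214 CPM under CS19, log2 differences of 1.49 ± 0.32 (SE, adjusted p = 0.00574) and 1.81 ± 0.30 (SE, adjusted p = 0.00151). *H3C7* rose from 0 counts in WT to 15.4, 24.7 and 15.8 CPM under CS16 and 34.6, 22.6 and 31.5 CPM under CS19.

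Nearly all H4 genes encode the same protein, and the H4 genes that rose most were at or near 0 counts in WT. *H4C5* had 0 counts in every WT library and stood at 547, 463 and 581 CPM under CS16 and 429, 611 and 478 CPM under CS19, at least 10190-fold and 9631-fold higher (adjusted p = 8.29e-06 and 8.99e-06). *H4C4* had 3, 0 and 1 counts in the WT libraries and stood at 249, 365 and 303 CPM under CS16 and 321, 349 and 421 CPM under CS19, 4381-fold (95% counting interval 1711 to 16079) and 5294-fold (95% counting interval 2067 to 19430) higher (adjusted p = 6.22e-06 and 4.44e-06). The leading H4 members in WT did not pass the test in CS16 or CS19. *H4C3* stood at 339, 96.6 and 473 CPM in the WT libraries, 422, 672 and 481 CPM under the CS16 label and 633, 514 and 723 CPM under the CS19 label, with log2 differences of 0.83 ± 0.51 (SE, adjusted p = 0.206) and 1.09 ± 0.50 (SE, adjusted p = 0.107). *H4C1* stood at 156, 87.2 and 205 CPM in the WT libraries, 86.1, 205 and 96.6 CPM under the CS16 label and 182, 102 and 176 CPM under the CS19 label, with overlapping groups and log2 differences of -0.18 ± 0.42 (SE, adjusted p = 0.739) and 0.077 ± 0.35 (SE, adjusted p = 0.867). In both, WT replicate 2 was the lowest or next to lowest of all 9 libraries. *H4C11* and *H4C12* are near copies, sharing 90.7% and 91.3% of their 100-base stretches, so the split of their counts is uncertain. *H4C12* fell, from 3.65, 1.48 and 7.29 CPM in WT to at most 0.273 CPM elsewhere, and *H4C11* stood at 3.55, 1.2 and 7.5 CPM in the WT libraries, 10.7, 7.78 and 8.95 CPM under the CS16 label and 13.9, 15.5 and 13.8 CPM under the CS19 label, rising in CS19, by 1.86 ± 0.54 (SE, adjusted p = 0.0224), and not passing in CS16, 1.20 ± 0.56 (SE, adjusted p = 0.103). The remaining tested members *H4C2*, *H4C8*, *H4C9* and *H4C16* did not pass in CS16 or CS19 against WT, with log2 differences of -0.81 to 0.87 in CS16 and -0.86 to 0.85 in CS19.

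Many members with a gain from near 0 counts lay side by side. On chromosome 6, from 26188710 to 26273412 (84703 bases), 15 members in a row from *H4C4* to *H2BC10* had at most 3 counts in every WT library, a stretch delimited after the values were seen. Under the knockout labels 10 of the 15 exceeded 3 counts in some library and 8 exceeded 100 counts, namely *H4C4*, *H2BC7*, *H4C5*, *H2BC8*, *H2AC8*, *H3C6*, *H1-3* and *H3C7*, and together the 15 reached 1390 CPM under CS16 and 1366 CPM under CS19. *H4C6*, *H4C7*, *H3C4*, *H3C8* and *H2BC10* had at most 3 counts in every library. In *H3C4* 96.6% of exon bases and in *H2AC7* 85.3% are shared with another annotated gene. Reads there were not counted, so the low counts of these members say little about their expression. *H2BC9* had at most 15 counts in a library and rose in the fit of 6 libraries against WT (adjusted p = 8.82e-05). The 6 other genes annotated inside the stretch also had at most 3 counts in every library. A second pair lay apart on chromosome 1, at 228456979 to 228460470, where *H2AC25* and *H2BC26* were at 0 counts in WT and summed to 461 CPM under CS16 and 337 CPM under CS19. On chromosome 6 at 27837880 to 27873534 the 5 members from *H2AC15* to *H4C13* were at most 3 counts in WT, and of these *H2AC16* alone exceeded 100 counts elsewhere.

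Several head-to-head H2A and H2B pairs shared a direction. There were 11 such pairs, with 214 to 282 bases between their annotated starts. *H2AC14* and *H2BC14*, 244 bases apart, fell together, with fitted log2 differences of -9.53 and -7.66 in CS16 and of -9.87 and -7.96 in CS19. *H2AC25* and *H2BC26*, 233 bases apart, rose together, as did *H2BC8* and *H2AC8*, *H2BC21* and *H2AC20*, *H2BC11* and *H2AC11*, and *H2BC12* and *H2AC12*. *H2BC13* rose in each comparison, whereas *H2AC13* beside it did not pass in CS16, at 0.66 against 1.46 for *H2BC13*, and rose in CS19. In *H2BC4* and *H2AC6* neither passed the test, and their log2 differences had opposite signs, 0.68 and -0.27 in CS16 and 0.62 and -0.30 in CS19. Of *H2AC1* and *H2BC1* the second fell and the first was not tested. *H2AC7* and *H2BC7*, 226 bases apart, differed. *H2BC7* had 95.8 CPM or more in each CS16 library, whereas *H2AC7* had at most 7 counts in any library and was not tested, and 85.3% of its exon bases are shared with another annotated gene, for which overlapping reads were not counted. *H2AC17* had at most 8 counts in a library beside an expressed *H2BC17*, and 71.0% of its exon bases overlap *H3C12*.

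A gene beside the cluster was chosen after its values were seen. *HFE*, which encodes a regulator of iron uptake and lies between *H1-2* and *H4C3* at 26087281 to 26098343 on chromosome 6, had 587, 481 and 643 counts in the WT libraries, 2, 0 and 3 in libraries labelled CS16 and 0, 1 and 0 under the CS19 label. Its log2 difference was -8.50 ± 0.49 (SE, adjusted p = 1.3e-05) and -10.59 ± 0.50 (SE, adjusted p = 5.72e-06). *H1-2* and *H4C3* on either side of it were expressed in all 9 libraries. *TRIM38*, near the same end of the cluster, fell too, with log2 differences of -2.49 and -2.47.

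Differences between the libraries labelled CS16 and CS19 were smaller than those from WT. Of 44 members tested, 4 were higher in CS16 (14.7% of all 17538 genes called higher), 7 were lower (12.7% called lower) and 33 did not pass, with log2 differences of -0.96 to 0.52 and a median of -0.12 against -0.016 over all genes. With the log2 cut-off of 2 no member passed in either direction by edgeR (0.633% and 0.496% of all genes), beside the 4 and 7 that passed without it. The head-to-head pair *H2AC8* and *H2BC8* was lower in CS16, by -0.96 ± 0.11 (SE, adjusted p = 2.57e-05) and -0.71 ± 0.13 (SE, adjusted p = 0.00115). Without overlap, *H2AC8* stood at 8.78, 9.78 and 9.39 CPM under CS16 and 16.1, 20.8 and 17.4 CPM under CS19. *H2BC26* was higher in CS16, by 0.42 ± 0.093 (SE, adjusted p = 0.00451), as were *H1-3*, by 0.23 ± 0.065 (SE, adjusted p = 0.0186), *H2AC25*, by 0.52 ± 0.15 (SE, adjusted p = 0.0216), and *H3C6*, by 0.31 ± 0.094 (SE, adjusted p = 0.0254).

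The remaining members of the 11 were lower in CS16. They were *H4C11* at -0.66 ± 0.12 (SE, adjusted p = 0.00131), *H3C1* at -0.49 ± 0.10 (SE, adjusted p = 0.00272), *H1-10* at -0.35 ± 0.091 (SE, adjusted p = 0.011), *H3C12* at -0.32 ± 0.085 (SE, adjusted p = 0.0116) and *H3C7* at -0.68 ± 0.18 (SE, adjusted p = 0.0129). *H3C12* stood at 55.4, 38.9 and 105 CPM in WT, 104, 130.0 and 128 CPM under CS16 and 149, 143 and 159 CPM under CS19, and its difference from WT passed the test in CS19, 1.23 ± 0.34 (SE, adjusted p = 0.0181), but not in CS16, 0.90 ± 0.34 (SE, adjusted p = 0.0586). Most of these calls were not stable. The call of *H2AC8* held under every alternative tried and those of the other 10 members were lost under at least one.

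Genes that act on histone transcripts were compared from lists set by function. Of all genes tested, 27.0% were called higher and 28.6% lower in CS16 against WT, and 26.3% and 26.6% in CS19 against WT. With the 6 libraries as 1 group these shares were 31.1% and 32.6%. Of 14 genes of histone pre-mRNA processing 8 rose in CS16 against WT and 7 in CS19 against WT, with medians of 0.57 and 0.56 on the log2 scale, and none was called lower by edgeR, also at an unadjusted p under 0.05, where 9 and 8 were higher. With the 6 libraries as 1 group 9 rose and 2, *SYMPK* and *ERI1*, fell. *LSM11*, a protein of the U7 particle, rose by 1.58 in CS16, and *CSTF2*, a cleavage factor, by 1.09. *SLBP* stood at 123, 99.0 and 151 CPM in WT, 171, 186 and 174 CPM under CS16 and 158, 169 and 175 CPM under CS19. Its log2 difference passed the test in CS16, 0.54 ± 0.19 (SE, adjusted p = 0.0432), and as 1 group of 6 libraries, 0.47 ± 0.15 (SE, adjusted p = 0.0149), but not in CS19, 0.47 ± 0.20 (SE, adjusted p = 0.078), and between CS16 and CS19 it was 0.075 ± 0.063 (SE, adjusted p = 0.425). Of 15 tested genes of histone gene transcription 5 and 6 rose and 1 fell. The S-phase phosphatase *CDC25A* and the cyclin *CCNE1* rose, by 1.74 and 1.20 in CS16, and *E2F1*, an activator of S-phase genes, fell by 0.97. *NPAT* did not pass in any comparison, at -0.14 ± 0.30 (SE, adjusted p = 0.713) in CS16 and -0.12 ± 0.30 (SE, adjusted p = 0.751) in CS19 against WT.

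S-phase and mitosis genes were counted from lists of the same kind. Of all genes tested, 27.0% were called higher in CS16 against WT and 26.3% in CS19 against WT. Of 48 genes of S phase and DNA replication 24 rose and 3 fell in CS16 against WT and 22 rose and 3 fell in CS19 against WT, with medians of 0.55 and 0.56, and 27 rose and 7 fell with the 6 libraries as 1 group. Examples are the nuclease *EXO1* at 2.18, the helicase subunit *GINS2* at 1.88 and, among those that fell, the thymidine kinase *TK1* at -1.52. Of 25 mitosis genes 7 fell in CS16 and 8 in CS19, and none was called higher by edgeR, also at an unadjusted p under 0.05, where 10 and 9 were lower. These shares lie near the 28.6% and 26.6% of all genes called lower, and with the 6 libraries as 1 group 12 fell and 1, *TTK*, rose. *ANLN*, a cytokinesis scaffold, was at -1.67 and *CENPF*, a kinetochore protein, at -0.75. The summed level of the S-phase list was 6619 ± 456 CPM in WT, 9169 ± 219 CPM under CS16 and 8713 ± 333 CPM under CS19, 1.39 and 1.32 times WT, beside 1.51 and 1.59 times for the histone members. The part of the cell cycle in the histone levels was not tested.

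Proteins that handle new histones and the replication-independent variants showed mixed changes. Of 28 chaperones and related genes 8 rose and 2 fell in CS16 and 6 rose and 2 fell in CS19. The shares that rose lie near the 27.0% and 26.3% of all genes called higher, while 28.6% and 26.6% of all were called lower. Among these genes were *RBBP4*, a subunit of chromatin assembly factor 1, at 1.44 and *SUPT16H* of the FACT complex at 1.13 in CS16. *HJURP*, which deposits the centromeric H3, was at -1.12 and *DNAJC9* at -0.54 in CS16. Of 10 tested variant genes 2 rose in each, and 3 fell in CS16 and 4 in CS19, beside the same shares of all genes. *MACROH2A2* and *H3-3A*, which encodes H3.3, rose by 5.27 and 1.83 in CS16, and *H3-7* and *H2AJ* fell, at -7.26 and -1.31. In the list of short RNAs without a poly(A) tail 7 genes were tested in CS16 and 8 in CS19 against WT, and edgeR called 0 of them, also at an unadjusted p under 0.05.

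Of the 70 members 43 were tested in every comparison and 19 in none. Of the members 5 had 0 counts in all 9 libraries (*H1-8*, *H4C6*, *H4C7*, *H2AC15* and *H3C11*), and 11 had no library over 3 counts. *H3C14*, *H3C15*, *H4C14* and *H4C15* lie in copies of 1 stretch of chromosome 1, with at least 96.8% of their 100-base stretches shared, and reads that fit more than 1 place were not counted, so their near-zero counts say little about their expression. *H2AC15* lies wholly within an exon of *H2BC15* on the other strand. Counts made without strand leave such overlapping reads out, so its 0 counts say little about its expression. The number of members with at most 3 counts in every library of a group was 27 in WT, 19 in CS16 and 15 in CS19.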

How the data were processed

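Total RNA of 3 WT, 3 CS16 and 3 CS19 libraries was sequenced after ribosomal depletion with a stranded kit. Per the labels and file headers, the authors trimmed reads with Trimmomatic 0.36, aligned them to GRCh38.p13 with STAR 2.7.2b and counted read pairs per gene of gencode release 38 with featureCounts of Subread 2.0.0, keeping both-end-mapped pairs of mapping quality of at least 30, without strand and without multi-mapped pairs, so the deposited values are raw counts. Near-identical histone copies therefore lose reads. Groups came from the labels. Comparisons used edgeR 4.0.16 in R 4.3.3 (TMM, filterByExpr, quasi-likelihood test, Benjamini-Hochberg over all genes). On simulated counts with 4-fold changes it recovered 199 to 200 of 200 changed genes with 9 to 22 false calls. The simulated replicates all had the same spread, with none apart as WT replicate 2 was, so this does not show performance on these data. Totals were 19527195 to 28627777 counts. Standard errors are of fitted log2 differences, and fitted values of genes at 0 counts depend on the prior count. Alternatives were DESeq2 1.42.0, other scalings and filters, a replicate block, a shared fit and each library left out. Values per library were given for the leading 3 members per class by CPM per kb, the 5 smallest adjusted p per direction and comparison with WT, and up to 10 between the clones. Members and lists were chosen with earlier results of these data known. Stem-loops were placed with gencode release 44 stop codons, and promoters came from RefSeq, GRCh38.p14. H2AC18 and H2AC19 also have names of the chosen form and were not analysed here, and 1 further gene is not reported here.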

Additional observations from a re-analysis of the deposited data

Results flagged for a closer look

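Between the libraries labelled CS16 and CS19, 11 of 44 members tested differed by edgeR's quasi-likelihood test of the difference itself, as log2 of CS16 over CS19 with 3 libraries each. Of these 4 were higher and 7 lower, beside 14.7% and 12.7% of all 17538 genes tested. Only the call of *H2AC8* held under every alternative tried. Higher in CS16 were *H2AC25* by 0.52, *H2BC26* by 0.42, *H3C6* by 0.31 and *H1-3* by 0.23. Lower in CS16 were *H2AC8* at -0.96, *H2BC8* at -0.71, *H3C7* at -0.68, *H4C11* at -0.66, *H3C1* at -0.49, *H1-10* at -0.35 and *H3C12* at -0.32.

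Among the 6 libraries labelled SNAI1-KO, a single library stood apart from the rest in 3 of 51 members tested, and chance alone sets about 1 in 20 groups apart in this way. *H2AC13* was lowest in CS16 replicate 1, at 325.1 CPM. *H2BC1* was highest in CS19 replicate 3, at 0.131 CPM, and *H4C12* in CS19 replicate 1, at 0.273 CPM, both a few counts.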

How the results depend on the processing

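Against WT, the counts of members called at an adjusted p under 0.05 stayed within 1.5 times of the reported counts under every alternative but the larger cut-off and, for lower members, the fits without WT replicate 2. With a library left out, 7 to 11 members were lower in CS16 against WT and 7 to 11 in CS19 against WT, 11 in each without WT replicate 2. The cut-off of a log2 difference of 2 left 12 higher members in CS16 against WT, 12 in CS19 against WT and 13 of the 6 libraries labelled SNAI1-KO against WT, and 0 higher and 0 lower in CS16 against CS19. In CS16 against CS19 the count of higher members was 1 with the replicate block, 0 in the shared fit and 1 to 6 with a library left out, and that of lower members was 14 without a filter, 1 in the shared fit and 5 to 16 with a library left out. Without TMM factors the ratios to WT of the total and of every class were higher than with them, under both labels. The sum of all members was then 1.66 times WT in CS16 and 1.90 times in CS19. By class the CS19 sums were 1.71 times WT for H1, 1.98 for H2A, 2.15 for H2B, 1.35 for H3 and 2.42 for H4. In CS16 the H3 sum was level with WT, at 1.00 times, and 0.912 times without WT replicate 2. The cause of these changes was not tested. Of members called in CS16 against WT, 20 of 25 higher and 7 of 7 lower kept their call under every alternative, and in CS19 against WT 21 of 28 and 7 of 7.

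The replicate numbers of the labels did not pair the libraries. Deviations from the group means correlated at -0.39 to 0.33 for the same number and -0.35 to 0.37 for different numbers, and most libraries did not correlate best with their own number. With the replicate block 26 members were higher and 7 lower in CS16 against WT, 30 and 7 in CS19 against WT, 31 and 8 for the 6 libraries together, and 1 and 5 in CS16 against CS19.

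Only members that did not pass the test changed sign, and their ranges with a library left out follow. In CS16 against WT, *H3C2* ranged from -0.20 to 0.26 (0.0090 with upper-quartile scaling and 0.047 without a filter), *H1-4* from -0.11 to 0.39, *H2BC17* from -0.13 to 0.52 and *H4C1* from -0.64 to 0.12. In CS19 against WT, *H4C1* ranged from -0.21 to 0.38, and between CS16 and CS19 *H4C5* ranged from -0.031 to 0.23. With the 6 libraries against WT, *H4C1* ranged from -0.36 to 0.23 (0.018 without a filter), *H1-4* from -0.054 to 0.47, *H2BC17* from -0.068 to 0.56 and *H3C2* from -0.078 to 0.36. Depth limits members near 3 counts a library.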
